A study of Mus musculus with 102 samples.

Results

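The comparison set epidermal stem cells of old mice collected at zeitgeber time 20 h (ZT20) against those collected at ZT8, both on control diet. Zeitgeber time counts hours within the light cycle of the animal house. Its members were the arrays whose labels give an age of 83 to 97 weeks, control diet and one of these times: 5 arrays at ZT20 and 3 at ZT8. These 8 are among 49 arrays of old mice, beside 53 arrays of adult mice in the series. All mice were Per1-Venus BAC transgenic on a C57B6/J background, so both groups carry a reporter built on the clock gene Per1, and both ate control diet ad libitum throughout the 25 weeks of feeding. The series also covers adult mice (47 to 57 weeks) and calorie restriction (CR, 30% less food), at 6 times of day, in 24 groups. RNA was extracted from epidermal stem cells, and 25 ng of it was amplified over 17 cycles before hybridisation to mouse PM Affymetrix arrays. The values are log2 expression levels that the authors normalised with RMA, so a difference of 1 is a doubling of the signal, and levels of different probe sets are not comparable with each other. The labels do not state how the stem cells were isolated, nor whether each array is 1 animal, so p-values measure the spread between arrays. That spread was estimated within all groups of the series, not from the compared arrays alone.

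Basal keratinocyte markers were bright on every array of both groups. Krt14, a keratin of the basal layer, lay at 12.36 to 12.52 at ZT20 and at 12.49 to 12.51 at ZT8, and the integrin Itga6 lay at 11.07 to 11.45 at ZT20 and 11.29 to 11.36 at ZT8. Krt10, a keratin of differentiating cells, was bright as well, at 11.26 to 11.78 at ZT20 and 11.41 to 11.62 at ZT8. Cd34, a marker of hair follicle bulge cells, stayed at 3.86 to 4.04 at ZT20 and 3.68 to 4.04 at ZT8, and the leukocyte gene Ptprc stayed at 3.78 to 3.87 at ZT20 and 3.81 to 3.89 at ZT8, both under the level of 4.73 that a gene's mean had to reach to be tested. Other markers of these cells were brighter. Of 14 hair follicle stem cell genes 5 were too dim and 9 were tested, among them Krt15 (means 11.79 at ZT20 and 11.74 at ZT8). Of 15 immune genes 5 were too dim and 10 were tested, among them H2-Aa (means 7.8 at ZT20 and 8.1 at ZT8). The labels' protocols state that the mice taken on a day all belonged to 1 time point, so no day holds both times. A mouse of each diet was collected per day, but the labels do not name the days. Day could therefore not be fitted beside time. On 3 of 5 ZT20 arrays and 2 of 3 ZT8 arrays Xist was brighter than 3 Y-linked genes on average, and the labels give no sex.

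The molecular clock is a feedback loop of transcription. Its activators, Arntl (BMAL1) with Clock or Npas2, bind E-box sequences and switch on the Per and Cry repressors, the nuclear receptors Nr1d1 and Nr1d2 (REV-ERB), and the output factors Dbp, Tef and Hlf. The Per and Cry proteins then shut the activators off, and the REV-ERB receptors compete with the ROR factors at ROR elements, through which Arntl is repressed. In skin the clock is known to time the division and differentiation of keratinocytes.

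One array stood apart. Over the 16 clock genes tested, each taken as its deviation from the mean of the 6 times in old control mice, ZT20 replicate 3 correlated at r = -0.53 with the mean of the other ZT20 arrays, at 0.80 with ZT16, at 0.73 with ZT12 and at 0.58 with ZT8. The other 4 ZT20 arrays correlated with the rest of ZT20 at 0.70 to 0.87, and the 3 ZT8 arrays with the rest of ZT8 at 0.63 to 0.94. Over all tested genes this array correlated with its own group at 0.974 to 0.978, and the other ZT20 arrays lay between 0.974 and 0.988. Its clock genes therefore go against its label of ZT20, and results that rest on it are given with and without it. Because it was noted for its clock genes, the clock differences without it are a description.

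Of 13391 genes tested, 20 passed an adjusted p of 0.05 (0.149%): 9 were higher at ZT20 (0.0672%) and 11 were lower (0.0821%). The lower genes included 3 clock genes, Nr1d2, Dbp and Per3, together with Sphk2, whose gene overlaps Dbp, and Nrg4, a growth factor of the neuregulin family. Falls reached -2.63 on the log2 scale, whereas the rises lay between 0.44 and 0.82. At an unadjusted p under 0.05 there were 1523 genes (11.4%), 1008 higher (7.53%) and 515 lower (3.85%). The median difference of all genes was 0.01 and the median SE was 0.18. Of the 20 genes, 18 had groups that did not overlap, as did 11.7% of all genes (8.15% with all ZT20 arrays above and 3.6% with all below).

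The count rested on single arrays. Without ZT20 replicates 1 to 5 in turn, 15, 7, 11, 10 and 31 genes passed, and 12, 7, 8, 10 and 18 of these were among the 20. Without ZT8 replicates 1 to 3 in turn, 6, 10 and 8 genes passed, and 5, 8 and 7 of these were among the 20. The 4 genes that passed in all 8 of these fits were Nr1d2, Sphk2, Dbp and Nrg4. With each array centred on its median, 8 genes passed, 2 higher and 6 lower, all among the 20: Sphk2, Nr1d2, Dbp, Nrg4, Trim59, Apbb1, Grik5 and Tlcd2. With the mean of a gene's probe sets in place of the brightest, 31 genes passed, and Per3 (-0.62, adjusted p = 0.106), Trim59 (-0.76, 0.106), Klk1 (0.30, 0.16), Tspan33 (0.40, 0.106) and Lbx1 (0.34, 0.196) did not. When only the 8 compared arrays estimated the spread, 0 genes passed in limma, although 2027 had an unadjusted p under 0.05.

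Promoter windows are shown for 3 of the genes that fell and for Tef, whose change differed between diets, because clock factors act through short motifs near such starts. Each holds 300 bases, 5′ to 3′ on the gene's strand (GRCm38.p6): Nr1d2 at chr14:18239057-18239356, Dbp at chr7:45704997-45705296, Nrg4 at chr9:55283576-55283875 and Tef at chr15:81802423-81802722. For Nr1d2 and Tef the window runs from 250 bases before to 50 bases after the RefSeq gene start. The windows of Dbp (gene start 45705100) and Nrg4 (gene start 55283654, minus strand) lie at other distances from those starts. Capitals mark CACGTG (the E-box) or AGGTCA (the core of the ROR element), searched on both strands.
Nr1d2: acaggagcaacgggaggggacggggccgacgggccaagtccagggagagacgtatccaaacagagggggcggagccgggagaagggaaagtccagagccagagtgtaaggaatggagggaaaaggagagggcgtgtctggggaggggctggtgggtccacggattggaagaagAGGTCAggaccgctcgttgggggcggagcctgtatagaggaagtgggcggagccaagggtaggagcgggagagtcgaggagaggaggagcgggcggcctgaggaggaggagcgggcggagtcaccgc
Dbp: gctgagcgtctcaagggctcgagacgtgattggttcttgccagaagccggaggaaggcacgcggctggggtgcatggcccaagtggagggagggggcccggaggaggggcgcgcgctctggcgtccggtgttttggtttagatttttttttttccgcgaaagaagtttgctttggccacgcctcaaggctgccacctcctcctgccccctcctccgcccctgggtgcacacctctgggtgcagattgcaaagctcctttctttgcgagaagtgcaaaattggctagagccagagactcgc
Nrg4: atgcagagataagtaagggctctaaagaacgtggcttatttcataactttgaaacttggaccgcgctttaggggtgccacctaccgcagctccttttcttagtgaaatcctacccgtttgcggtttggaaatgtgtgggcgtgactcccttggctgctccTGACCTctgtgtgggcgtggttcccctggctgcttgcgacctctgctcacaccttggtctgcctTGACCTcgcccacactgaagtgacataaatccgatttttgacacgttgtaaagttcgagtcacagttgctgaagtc
Tef: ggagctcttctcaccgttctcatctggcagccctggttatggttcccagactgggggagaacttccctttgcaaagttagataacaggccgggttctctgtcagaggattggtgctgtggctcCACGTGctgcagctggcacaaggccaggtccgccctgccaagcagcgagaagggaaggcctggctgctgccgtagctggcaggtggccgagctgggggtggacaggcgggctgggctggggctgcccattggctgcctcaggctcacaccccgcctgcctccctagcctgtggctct
The Nr1d2 window held 1 ROR core and the Nrg4 window 2, the Tef window held 1 E-box, and the Dbp window held neither. Of 32851 promoter windows, 7.15% held an E-box and 16.3% a ROR core. Of the 11 genes that fell, 0 had an E-box in a window and 3 a ROR core (Nr1d2, Nrg4 and Jazf1). Sphk2 and Jazf1 have 2 windows each, so these shares of genes are not set against the shares of windows. Among 14 clock genes with a window, 4 held an E-box (Per1, Cry1, Ciart and Tef) and 5 a ROR core (Nr1d2, Arntl, Clock, Per1 and Nfil3). Of these genes Arntl, Per1 and Tef have 2 windows each and Clock has 3, so their shares are not set against those of windows either. The Tef window shown is 1 of its 2. All the matches are of letters within the windows and say nothing about binding.

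Among the clock repressors, Nr1d2 fell most clearly. Its level was 8.13, 7.68, 8.93, 8.12 and 8.41 on the ZT20 arrays and 10.01, 9.61 and 9.82 on the ZT8 arrays. All ZT20 arrays lay below all ZT8 arrays, and replicate 3 was the highest of ZT20. The difference was -1.56 ± 0.22 (SE, adjusted p = 2.04e-06), and without replicate 3 it was -1.72 (adjusted p = 6.23e-08). A second Nr1d2 probe set gave -1.79.

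Per3, a Period gene, had 6.50, 6.23, 8.79, 6.58 and 7.16 at ZT20 and 8.94, 7.96 and 8.44 at ZT8. Replicate 3 lay among the ZT8 arrays and the other 4 ZT20 arrays lay below all of them. Per3 fell by 1.39 ± 0.33 (SE, adjusted p = 0.0444), and without replicate 3 the difference was -1.83 (adjusted p = 0.00022); it passed in 2 of the 8 fits that leave out 1 array. Its 4 dimmer probe sets gave -0.83, -0.57, -0.29 and -0.04. Per3 shares 4714 bases with Uts2.

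The other repressors did not pass. Ciart, a repressor of the activator pair, had 6.21, 6.73, 6.88, 6.62 and 6.80 at ZT20 and 7.39, 7.18 and 7.19 at ZT8. Its groups did not overlap, and the difference was -0.60 ± 0.16 (SE, adjusted p = 0.0988). Cry1 had 6.24, 6.51, 6.11, 6.98 and 6.71 at ZT20 and 4.96, 5.91 and 5.41 at ZT8. All its ZT20 arrays lay above ZT8, and the 3 ZT8 arrays ran from 4.96 to 5.91. The difference of 1.08 ± 0.37 did not pass (SE, adjusted p = 0.197). This SE rests on the spread within all groups of the series.

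Per2 differed by -0.42 ± 0.19 (SE, adjusted p = 0.392), and by -0.63 without replicate 3 (adjusted p = 0.153). Its ZT20 levels of 6.99, 6.78, 7.79, 6.65 and 6.46 overlapped the ZT8 levels of 7.46, 7.11 and 7.49 through replicate 3. Per1 stood at 9.45, 9.70, 9.38, 9.54 and 9.44 at ZT20 and at 9.68, 9.51 and 9.37 at ZT8. Its difference was -0.02 ± 0.25 (SE), and turned to 0.03 with the arrays centred. These mice carry a Per1 reporter, and whether the Per1 probe set reads it was not tested. Cry2 (-0.24 ± 0.20, SE) overlapped between times only through ZT20 replicate 3, and differed by -0.43 without it (adjusted p = 0.433). Bhlhe40 (-0.39 ± 0.27, SE), which encodes an E-box repressor also called DEC1, overlapped with and without that array. Of the 8 repressors tested, 2 fell and 0 rose, and their median difference was -0.40 beside 0.01 for all genes.

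Of the activators, 0 of 4 passed. Arntl had 9.03, 9.05, 8.36, 9.52 and 8.27 at ZT20 and 6.94, 8.59 and 7.92 at ZT8. The ZT8 arrays spread over more than 1 log2 unit and overlapped ZT20, and the difference was 1.03 ± 0.48 (SE, adjusted p = 0.389). Npas2, the partner that can stand in for Clock, had 8.27, 8.05, 7.62, 8.20 and 7.74 at ZT20 and 7.77, 7.28 and 7.70 at ZT8, a difference of 0.39 ± 0.16 (SE, adjusted p = 0.308). Its second probe set gave 1.69, and with the mean of both Npas2 passed, at 1.04 (adjusted p = 0.0146). Clock differed by -0.20 ± 0.22 (SE) and Rora, a ROR factor, by -0.12 ± 0.15 (SE).

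Among the output factors, Dbp fell. Its level was 5.67, 6.21, 8.16, 6.17 and 6.04 at ZT20 and 8.82, 8.29 and 8.13 at ZT8. Replicate 3 lay within the ZT8 range, and the other 4 ZT20 arrays lay below all ZT8 arrays, none of them above 6.21. The difference was -1.96 ± 0.32 (SE, adjusted p = 0.000101), which is 0.257 of the ZT8 signal, and -2.39 without replicate 3 (adjusted p = 3.66e-08). Tef, of the same PAR bZIP family, had 8.77, 8.40, 9.53, 8.38 and 8.57 at ZT20 and 9.43, 9.18 and 9.27 at ZT8. It differed by -0.57 ± 0.16 (SE, adjusted p = 0.108) with all arrays and passed without replicate 3, at -0.77 (adjusted p = 0.00395). Its second probe set gave -1.12, and with the mean of both Tef passed on all arrays, at -0.84 (adjusted p = 0.036). Hlf (-0.28 ± 0.20, SE) and Nfil3 (0.21 ± 0.31, SE), which competes with Dbp for its sites, did not pass. Of 19 clock genes listed 16 were tested. Bhlhe41 was too dim, and the others were not analysed here.

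**Figure D1:**
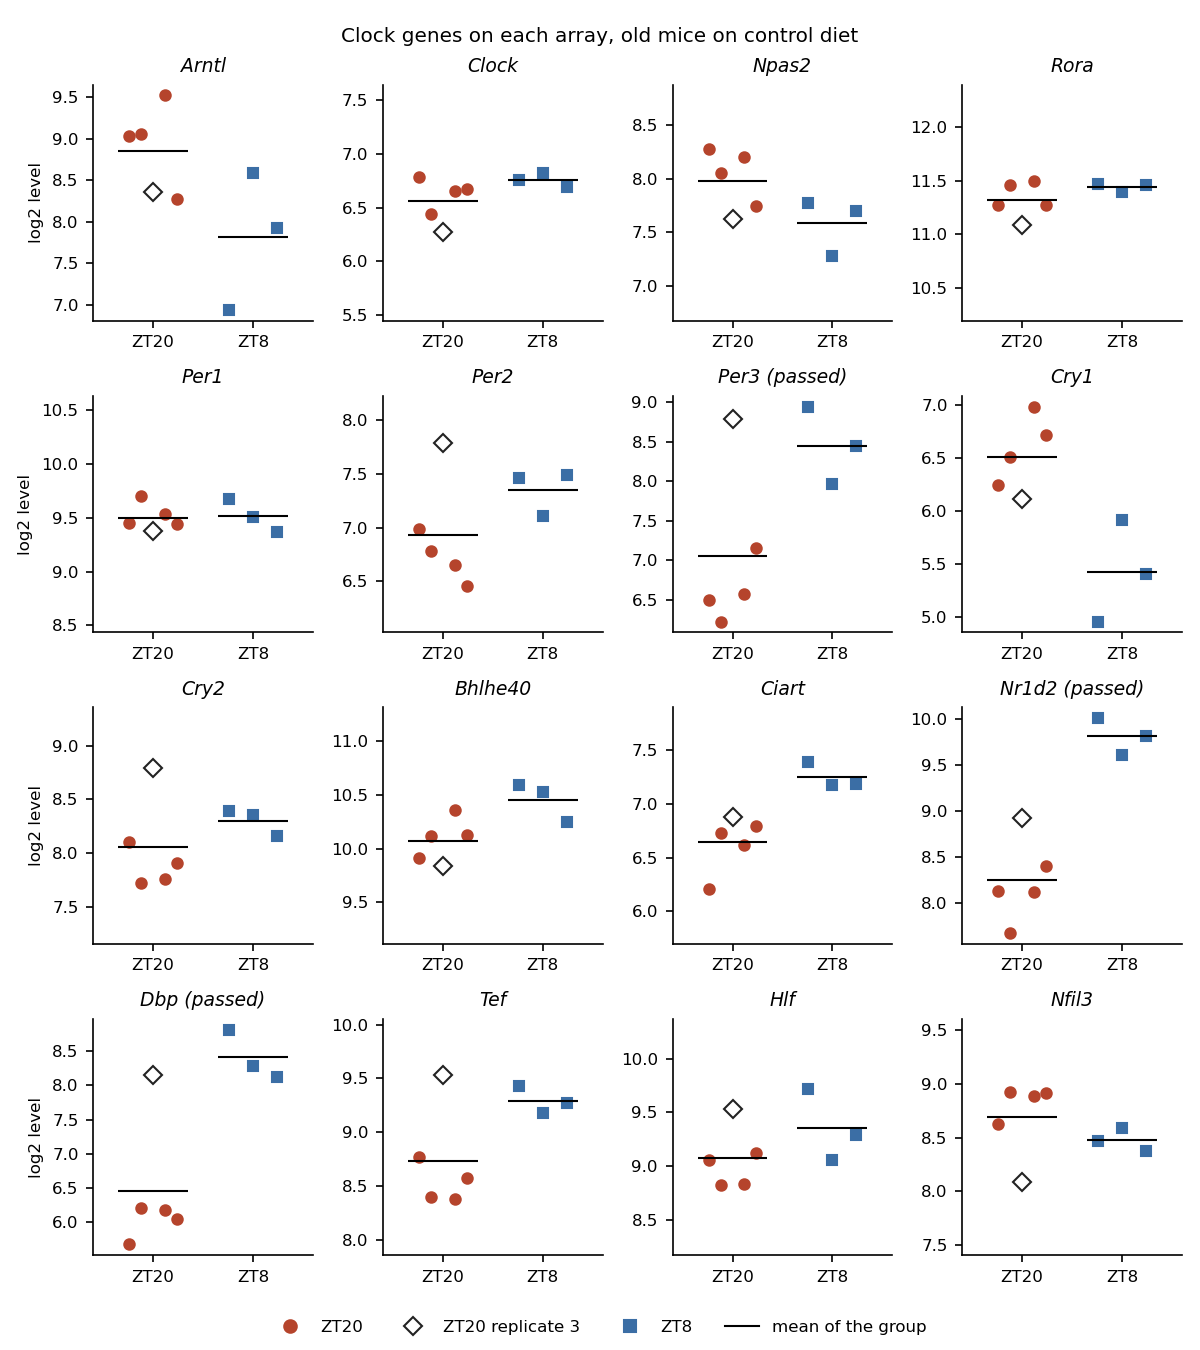
Log2 levels of the 16 clock genes on each array of old control mice, with ZT20 left of ZT8 and a line at each mean; axes differ between panels. The open diamond is ZT20 replicate 3, which lies among the ZT8 arrays for Dbp (8.16) and Per3 (8.79) while the other ZT20 arrays lie below them.

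Sphk2, which encodes a sphingosine kinase, had the largest fall of all tested genes past the threshold. Its level was 6.61, 6.81, 9.59, 6.53 and 7.39 at ZT20 and 10.21, 9.84 and 9.98 at ZT8. All ZT20 arrays lay below ZT8, with replicate 3 close beneath. The difference was -2.63 ± 0.34 (SE, adjusted p = 2.04e-07), or 0.162 of the ZT8 signal, and -3.18 without replicate 3 (adjusted p = 6.9e-14). Sphk2 (chromosome 7, 45709463 to 45718002, GRCm38.p6) shares 741 bases with Dbp (45705100 to 45710203) and 2536 bases with Rpl18. A second Sphk2 probe set gave 0.39, in the opposite direction. The call for Sphk2 is therefore uncertain, since signal from Sphk2 and from the genes it overlaps cannot be told apart here. With the mean of both probe sets the difference was -1.12 (adjusted p = 0.0383).

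Nrg4, an EGF-family ligand of the receptor ErbB4, had 5.38, 5.87, 5.38, 6.04 and 5.86 at ZT20 and 6.90, 7.0 and 6.68 at ZT8. The groups were well separated, and here replicate 3 lay low with the other ZT20 arrays. Nrg4 fell by 1.15 ± 0.18 (SE, adjusted p = 6.47e-05) and by 1.07 without replicate 3 (adjusted p = 0.000682). It shares 4212 bases with Fbxo22.

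Nim1k, a kinase related to AMPK, had 5.40, 5.79, 4.88, 6.43 and 6.03 at ZT20 and 7.50, 7.57 and 6.88 at ZT8. Replicate 3 was the lowest array, and the difference of -1.61 ± 0.36 (SE, adjusted p = 0.0289) was -1.40 without it and no longer passed (adjusted p = 0.0983). Trim59, of the TRIM family of ubiquitin ligases, had 5.92, 6.22, 6.04, 6.32 and 6.68 at ZT20 and 7.27, 7.28 and 7.53 at ZT8. It fell by 1.12 ± 0.26 (SE, adjusted p = 0.0354), and its second probe set gave -0.39. Tlcd2, a membrane protein with a TLC domain, had 5.93, 6.22, 6.23, 6.51 and 6.48 at ZT20 and 7.39, 7.02 and 7.33 at ZT8, a fall of 0.97 ± 0.22 (SE, adjusted p = 0.0289).

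The remaining falls were smaller and lay closer to background. Slc35g1, a solute carrier, fell by 0.89 ± 0.21 (SE, adjusted p = 0.0438), Jazf1, a zinc finger protein, by 0.65 ± 0.14 (SE, adjusted p = 0.0289) and Cryba1, a crystallin known from the lens, by 0.55 ± 0.12 (SE, adjusted p = 0.0289). Without replicate 3, Trim59 (adjusted p = 0.0898), Tlcd2 (0.0712), Slc35g1 (0.0983), Jazf1 (0.0983) and Cryba1 (0.0898) did not pass, with differences between -1.07 and -0.52.

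**Figure D2:**
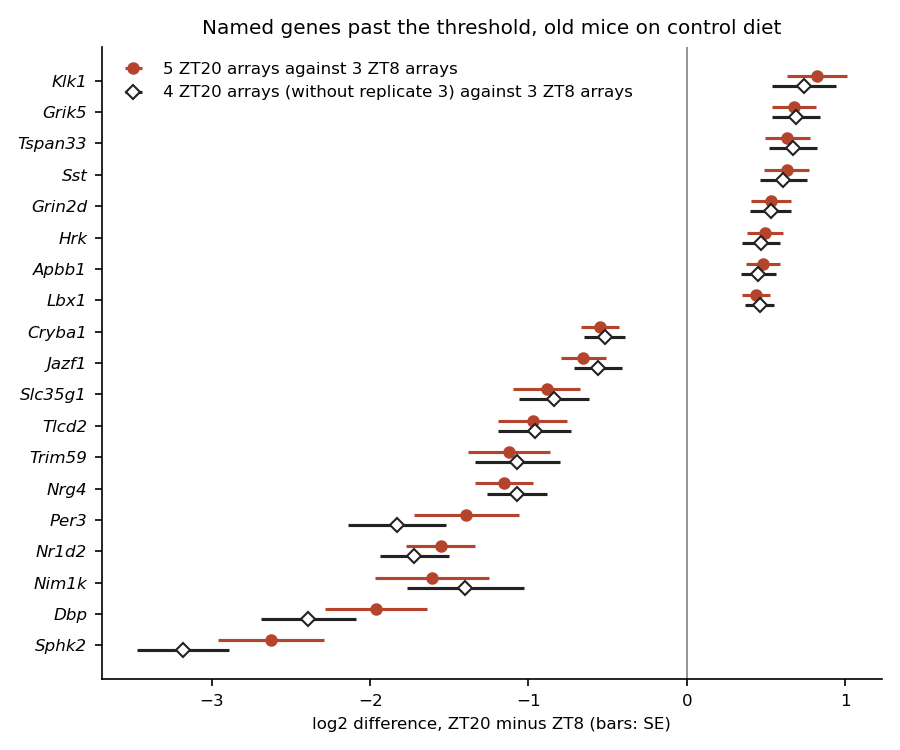
Log2 difference, ZT20 minus ZT8, of the 19 named genes past the threshold, with SE bars; filled points use 5 ZT20 arrays and open points 4, without replicate 3. Leaving out that array moves Sphk2 to -3.18 and Dbp to -2.39, and the 8 rises stay between 0.45 and 0.74.

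The rises were small changes, and 6 of the 9 genes lay in the dimmer range described below. Klk1, tissue kallikrein, had 7.07, 7.56, 7.74, 7.39 and 7.38 at ZT20 and 6.61, 6.70 and 6.51 at ZT8. It rose by 0.82 ± 0.19 (SE, adjusted p = 0.0354) with no overlap between groups, although its other 2 probe sets lay at 3.91 and 3.95 and gave 0.09 and -0.02. Grik5, a subunit of kainate receptors, had 6.53, 6.59, 6.55, 6.52 and 6.76 at ZT20 and 5.79, 6.07 and 5.87 at ZT8. It rose by 0.68 ± 0.14 (SE, adjusted p = 0.011), and by 0.69 without replicate 3 (adjusted p = 0.0141).

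Lbx1, a homeobox factor, had 5.62, 5.68, 5.55, 5.75 and 5.61 at ZT20 and 5.10, 5.25 and 5.26 at ZT8. Its rise was only 0.44 ± 0.09 (SE, adjusted p = 0.00965), and it passed in 7 of the 8 fits that leave out 1 array. The arrays of each time lay close together, but the SE rests on the spread within all groups of the series. Tspan33, a tetraspanin, had 5.75, 6.14, 5.75, 6.01 and 5.78 at ZT20 and 5.25, 5.29 and 5.22 at ZT8, a rise of 0.63 ± 0.14 (SE, adjusted p = 0.0333). Its other 3 probe sets gave 0.55, 0.22 and 0.18. Sst, which encodes somatostatin, rose by 0.63 and Grin2d, an NMDA receptor subunit, by 0.53. Hrk, a BH3-only protein that promotes cell death, rose by 0.49 and Apbb1, an adaptor of the amyloid precursor protein, by 0.48. Adjusted p for these 4 lay between 0.0289 and 0.0438. When 1 array was left out in turn, Grin2d passed in 0 of 8 fits, Sst and Hrk in 1 each and Apbb1 and Klk1 in 2 each. Grin2d lies 0.05 above the filter level, and its ZT8 mean of 4.53 is below it. The ninth gene has only a provisional symbol.

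Without replicate 3, Lbx1, Grik5 and Tspan33 passed and the other 5 named rises did not. Mean levels of the 9 rises over all arrays were 4.78 to 7.17, and 6 of them lay under 5.59, the 50th percentile of probe set means. Higher values among dim genes were common in this comparison. Of the 3258 tested genes under that percentile, 480 (14.7%) were higher at an unadjusted p under 0.05 and 56 (1.72%) lower. Of the 10133 brighter genes, 528 (5.21%) were higher and 459 (4.53%) lower. The dimmest 30% of probe sets averaged 4.18 to 4.26 at ZT20 and 4.16 to 4.24 at ZT8. Array medians of tested genes were 6.86 to 7.08 at ZT20 and 6.91 to 7.01 at ZT8. The part of these levels in the rises was not tested beyond the fits with centred arrays, where Grik5 and Apbb1 were the 2 rises that passed, and with the dim level as a covariate, where all 19 named genes passed.

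Cell cycle genes moved unevenly between arrays, and 0 of them passed. DNA replication genes, which license and copy the genome in S phase, had a median difference of -0.39 over 29 tested members, beside 0.01 for all genes. Of these, 12 were lower and 1 higher at an unadjusted p under 0.05 (3.85% and 7.53% of all genes), and 9 had all ZT20 arrays below ZT8, as 3.6% of all genes did. The mean level of the 29 genes was 7.35, 7.81, 7.94, 7.70 and 8.27 at ZT20 and 8.29, 8.06 and 8.20 at ZT8. ZT20 replicate 1 was the lowest and replicate 5 lay within the ZT8 range. The median was -0.42 without replicate 3. Chosen after their values were seen, Mcm3 (-0.92 ± 0.28) and Mcm6 (-0.75 ± 0.21, both SE), subunits of the replicative helicase, had adjusted p of 0.125 and 0.0988.

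The 27 mitosis genes had a median of -0.19, with 8 lower and 0 higher at an unadjusted p under 0.05, beside 3.85% lower and 7.53% higher among all genes. Their mean level was 6.88, 7.11, 6.52, 7.37 and 7.81 at ZT20 and 7.45, 7.34 and 7.42 at ZT8. The ZT20 arrays lay on both sides of ZT8 and replicate 3 was the lowest. Without it the median was -0.10 and 4 genes were lower. Of 15 G1/S genes, 3 were lower and the median was -0.12. One of these was Ccnd2, a D-type cyclin chosen after its value was seen, at -0.58 ± 0.17 (SE, adjusted p = 0.122).

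Cholesterol synthesis genes had a median of -0.36 over 16 members, beside 0.01 for all genes. Of these, 3 were lower at an unadjusted p under 0.05 (3.85% of all genes), and 1 without replicate 3. The mean level of the 16 genes was 7.03, 7.75, 7.15, 7.83 and 8.01 at ZT20 and 7.68, 8.16 and 7.68 at ZT8. Replicates 1 and 3 were low and the other ZT20 arrays lay within the ZT8 range. The Wnt pathway had a median of -0.31 over 14 members, 3 of them lower by the same measure. All ZT20 arrays lay below ZT8 for 4 of the 14, as for 3.6% of all genes. The mean level of the pathway was 7.55, 7.76, 7.85, 7.76 and 7.78 at ZT20 and 8.05, 7.98 and 7.95 at ZT8, with no overlap. The ligand Wnt3, chosen after its value was seen, differed by -0.63 ± 0.21 (SE, adjusted p = 0.184). The unfolded protein response, 18 genes of protein folding, had a median of -0.02 with 0 members at an unadjusted p under 0.05. Outside the clock lists, 0 genes of any of the lists passed.

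Markers of other cells were also described. The 8 basal keratinocyte markers had a median of -0.15, and the mean level of the list on an array was 11.31 to 11.60 at ZT20 and 11.56 to 11.62 at ZT8. Levels are means over all 15 immune, 12 fibroblast and endothelial and 9 muscle and fat genes on the table, including 5, 5 and 3 too dim to be tested. Immune markers stood at 5.45 to 5.68 at ZT20 and 5.65 to 5.76 at ZT8. Their 10 tested members had a median difference of -0.06, with 1 lower at an unadjusted p under 0.05 (3.85% of all genes). This was H2-Ab1, an MHC class II gene singled out after its value was seen. It averaged 6.56 at ZT20 and 8.17 at ZT8 with no overlap, a difference of -1.60 ± 0.48 (SE, adjusted p = 0.122). Fibroblast and endothelial markers stood at 5.08 to 5.31 at ZT20 and 4.95 to 5.10 at ZT8. Their 7 tested members had a median of 0.16, with 2 higher at an unadjusted p under 0.05. Muscle and fat markers stood at 4.97 to 5.11 at ZT20 and 4.88 to 4.99 at ZT8. Their 6 tested members had a median of 0.20, with 2 higher; of all genes 7.53% were higher by this measure, and of those under the 50th percentile 14.7%. The part of these markers in the results was not tested. Fewer cells of a type and less RNA per cell cannot be told apart in such samples.

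**Figure D3:**
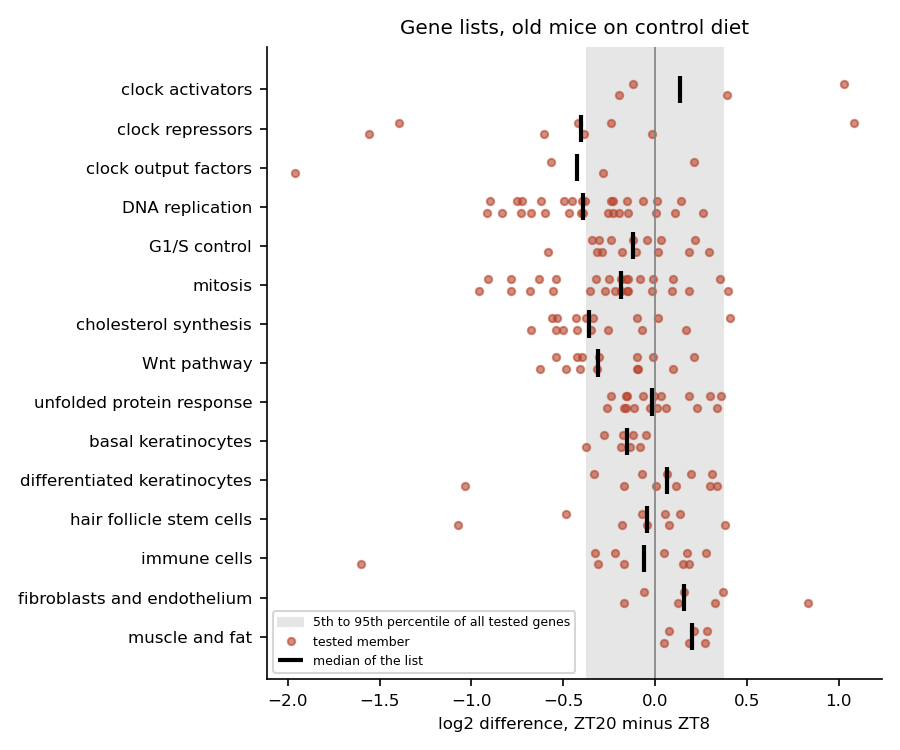
Log2 difference, ZT20 minus ZT8, of each tested member of 15 gene lists (points) with the list's median (bar); the grey band holds the 5th to 95th percentile of all genes, -0.37 to 0.37. The band describes single genes and not medians; the list medians run from -0.43 for clock output factors to 0.20 for muscle and fat markers.

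The other times of day place the pair on the daily curve. Of the 11 falls, 8 had their highest mean of the 6 times at ZT8 and 3 at ZT12 (Sphk2, Dbp and Per3), and the lowest was at ZT0 for 7 and at ZT20 for 4. All 8 named rises had their lowest mean at ZT8, and 7 had their highest at ZT20. The choice of these genes by the pair favours such extremes, so the counts are a description. Nrg4 averaged 5.58 ± 0.33 at ZT0, 5.63 ± 0.15 at ZT4, 6.86 ± 0.16 at ZT8, 6.05 ± 0.17 at ZT12, 5.84 ± 0.54 at ZT16 and 5.71 ± 0.30 at ZT20 (SD, n = 4, 4, 3, 4, 4 and 5). It was high at ZT8, with means from 5.58 to 6.05 at the other times. Nim1k was likewise high at ZT8, at 7.32 ± 0.38, with means from 4.82 to 5.85 at the other 5 times. Per3 followed a broader curve, from 5.84 ± 0.22 at ZT0 through 9.06 ± 0.21 at ZT12 to 7.05 ± 1.03 at ZT20. Cry1 ran the other way, with its highest mean of 7.15 ± 0.28 at ZT0 and its lowest of 5.43 ± 0.47 at ZT8, so that the pair does not span its whole daily range. Arntl was highest at ZT0 and lowest at ZT12, and the range of its means was 2.11. DNA replication genes averaged 8.51 at ZT12, 8.18 at ZT8 and 7.81 at ZT20, and mitosis genes were highest at ZT4, at 7.82.

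**Figure D4:**
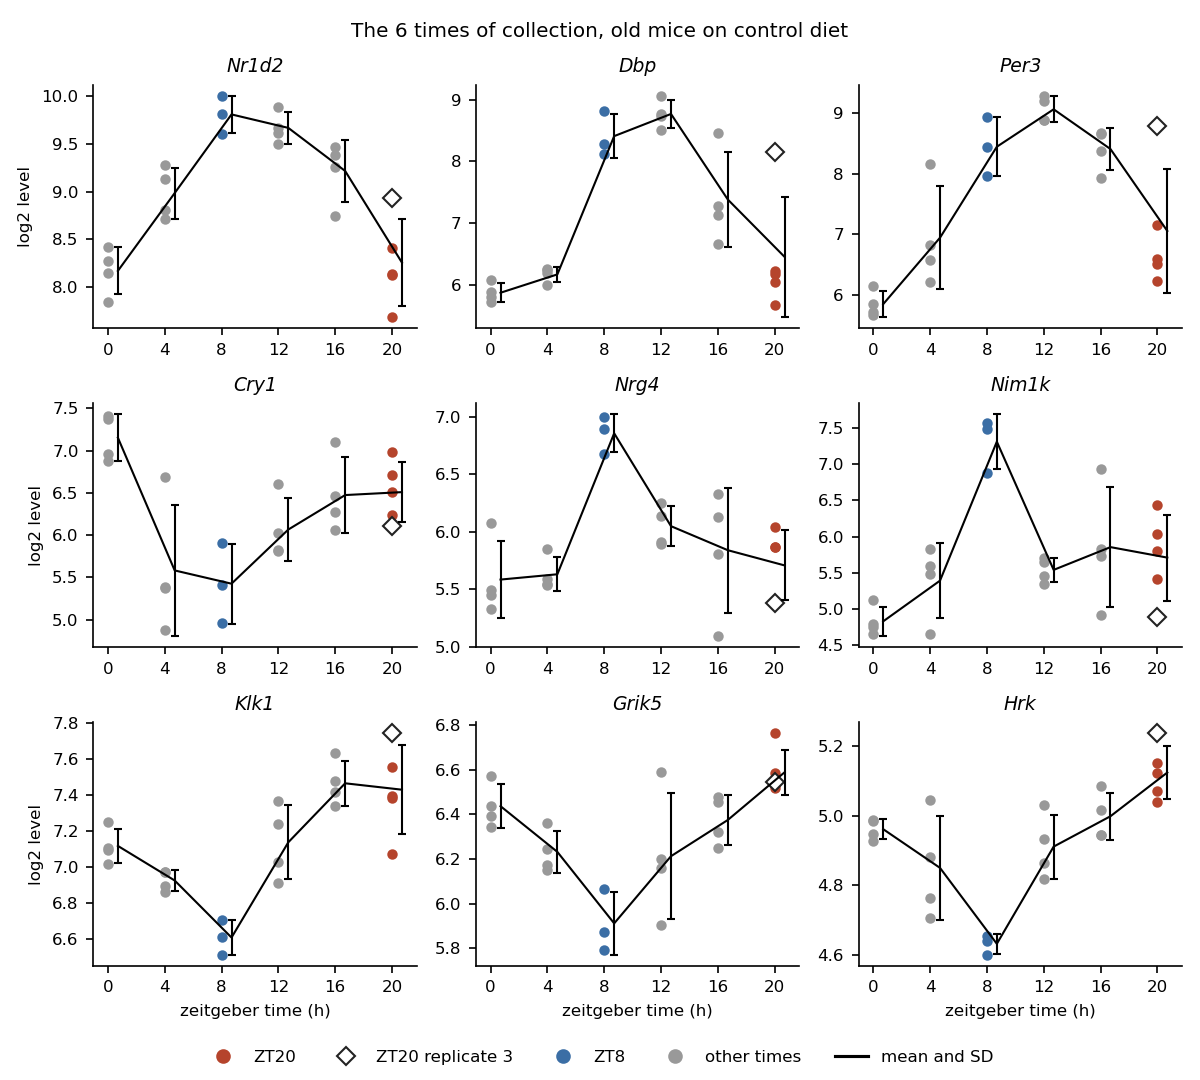
Log2 levels on each array of old control mice at the 6 collection times (h) for 9 genes, with mean and SD drawn just right of the points; axes differ between panels. Nrg4 (6.86) and Nim1k (7.32) are highest at ZT8, Dbp and Per3 at ZT12, and Klk1, Grik5 and Hrk are lowest at ZT8.

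Adult mice on control diet and old mice under CR have the same pair of times, on other arrays. In adult control mice 40 genes passed (0.299%), 27 higher (0.202%) and 13 lower (0.0971%). They share 7 genes with the 20, which is 35% of the 20 and 17.5% of the 40: Apbb1, Dbp, Klk1, Nr1d2, Nrg4, Per3 and Sphk2. In old CR mice 43 genes passed (0.321%), 18 higher (0.134%) and 25 lower (0.187%). They share 4 with the 20, which is 20% of the 20 and 9.3% of the 43: Dbp, Nr1d2, Per3 and Sphk2. Signs matched those of the 20 genes for 20 in adult control and 19 in old CR. In old CR the named rises lay between -0.02 and 0.12, beside a median SE of 0.16 over all genes, so their signs are uncertain. The share of matching signs over all genes was not computed. Over 13391 genes the differences in old control correlated with those in adult control at r = 0.62. With those in old CR they correlated at r = 0.34. Genes are not independent, and a mouse of each diet was collected per day.

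The difference by age was tested in the same model as the old minus the adult change. No gene passed (0 of 13391), and 136 (1.02%) had an unadjusted p under 0.05. A miss does not show that the ages act alike, since the median SE of this difference was 0.26. The smallest p belonged to Wnt2, a Wnt ligand, with a change of -0.63 in old mice and 0.39 in adult mice (adjusted p = 1.0).

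The difference by diet passed for 2 genes (0.0149%), both clock genes that did not pass in old control mice alone. A mouse of each diet was collected per day, but the labels do not name the days, so the test left this pairing out. On control diet Per2 differed by -0.42 ± 0.19 (SE), from the array values given above. The 5 old CR arrays at ZT20 had 6.29, 6.20, 5.80, 6.21 and 5.87 and the 4 at ZT8 had 7.85, 8.29, 8.50 and 8.45, and Per2 fell by 2.20 ± 0.18 there (SE, adjusted p = 1.27e-16). The CR groups lay more than 1 log2 unit apart, whereas the control groups overlapped. The change on control diet minus that under CR was 1.78 ± 0.26 (SE, adjusted p = 2.44e-05), and 1.56 without old control ZT20 replicate 3 (adjusted p = 0.000211).

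For Tef the difference on control diet was -0.57 ± 0.16 (SE). The old CR arrays had 7.80, 7.82, 8.13, 8.21 and 8.05 at ZT20 and 9.58, 9.63, 9.87 and 9.69 at ZT8. Tef fell by 1.69 ± 0.15 (SE, adjusted p = 1.93e-15) under CR. The difference of these changes was 1.13 ± 0.22 (SE, adjusted p = 0.00829). It did not pass without old control ZT20 replicate 3 (0.93, adjusted p = 0.0755), without old control ZT8 replicate 2 (1.07, adjusted p = 0.108) or replicate 3 (1.11, adjusted p = 0.0567), or without old CR ZT8 replicate 3 (1.07, adjusted p = 0.0555). In adult control mice Per2 differed by -0.73 ± 0.20 (SE, adjusted p = 0.089) and Tef fell by 0.83 ± 0.17 (SE, adjusted p = 0.00425).

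The 8 named rises were near 0 under CR. Their median was 0.63 in old control, 0.43 in adult control and 0.05 in old CR, where they ranged from -0.02 to 0.12. The genes were chosen for their change in old control, which favours a larger value there. Klk1 averaged 7.27 ± 0.27 at ZT20 and 7.25 ± 0.40 at ZT8 in old CR (SD, n = 5 and 4), a difference of 0.02 ± 0.17 (SE). The difference by diet was 0.80 ± 0.26 for Klk1 (SE, adjusted p = 0.996) and 0.65 ± 0.19 for Grik5 (SE, adjusted p = 0.996), and neither passed. Among genes under the 50th percentile, 258 (7.92%) were higher at an unadjusted p under 0.05 in adult control mice and 13 (0.399%) in old CR mice.

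The 11 falls had a median of -1.15 in old control, -0.87 in adult control and -0.50 in old CR. Nrg4 differed by -0.87 ± 0.19 in adult control (SE, adjusted p = 0.0142) and by -0.13 ± 0.17 in old CR, and its difference by diet, -1.03 ± 0.25, did not pass (both SE, adjusted p = 0.292). At ZT8 Nrg4 averaged 6.86 ± 0.16 on control diet and 5.87 ± 0.18 under CR in old mice (SD, n = 3 and 4). Slc35g1 differed by -0.02 ± 0.22 in adult control mice (SE), and its difference by age, -0.86 ± 0.30, did not pass (SE, adjusted p = 1.0).

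**Figure D5:**
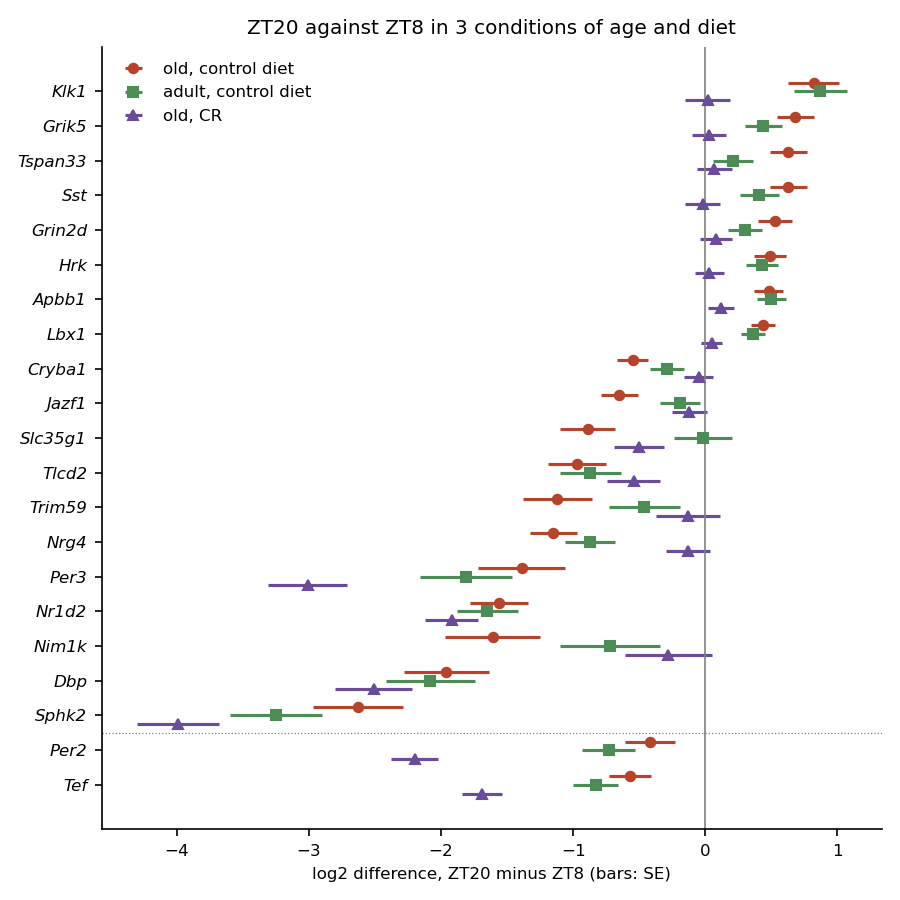
Log2 difference, ZT20 minus ZT8, with SE bars, in old control, adult control and old CR mice for the 19 named genes and, under the dotted line, Per2 and Tef. The rises have a median of 0.63 in old control and 0.05 in old CR, while Per2 is at -0.42 in old control and -2.20 in old CR.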

How the data were processed

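The authors deposited log2 expression levels made with RMA, per the submitters' processing notes (no version named), and these values entered the tests without rescaling. Of 45140 probe sets, 28898 had 1 gene symbol in the platform annotation (551 had several, 15588 had none and 103 were controls), and symbols were updated to RefSeq through Entrez IDs. The brightest probe set stood for each of 17097 genes, and 13391 with a mean at or above the 30th percentile (4.733) were tested. The number of arrays limits the precision.

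Tests used limma 3.58.1 in R 4.3.3: a mean for each of the 24 groups over 102 arrays, moderated tests and Benjamini-Hochberg adjusted p under 0.05 over all tested genes. Named are up to 12 rises and 12 falls past the threshold, without provisional symbols, all tested clock genes, genes past the threshold for a difference by age or diet, and, where none passed, those with the smallest p. The comparison, genes and lists were chosen with earlier results of these data known. Scripts were tested on simulated data. Alternatives covered the arrays that estimate the spread, scaling, filter, probe set rule, prior, weights, covariates, a replicate block and each array left out.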

Additional observations from a re-analysis of the deposited data

Results flagged for a closer look

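On the ZT20 arrays of old control mice, Sphk2 at 9.59 and Dbp at 8.16 on replicate 3 lay far above the other 4 arrays, with gaps of 0.719 and 0.782 of the group's range, past Dixon's critical value of 0.71. Grik5 at 6.76 on replicate 5 lay above its 4 other arrays, with a gap of 0.718 of the range. These were 3 of 32 tests, and 2 of the 3 were on replicate 3. Chance flags about 1 in 20 independent tests. That rate does not apply here, since the genes share arrays and some were named for their values on them.

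The changes of Per2 and Tef differed between diets in old mice by limma's test of that difference, at 1.78 for Per2 and 1.13 for Tef (control diet minus CR). Both are clock genes with a larger fall under CR. Only the Per2 difference passed without old control ZT20 replicate 3, and the Tef difference was also lost in other fits that left out 1 array.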

How the results depend on the processing

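Beside 20 genes past the threshold, 132 passed when only old control arrays estimated the spread and 0 when only the 8 compared arrays did, 8 with centred arrays (2 higher and 6 lower, against 9 and 11 in the values as deposited; centring moved the median of all genes to 0.06), 10 under the stricter filter, 31 with the mean of probe sets, 2049 with array weights, whose estimation stopped before convergence, 2140 with weights estimated gene by gene (chosen after seeing the data) and 117 with the dim level as a covariate. With the replicate block on the 8 arrays 3 passed, 1 of them among the 20. Same-numbered arrays had correlations of deviations of 0.03, -0.27 and 0.01, and different-numbered arrays of -0.3 to 0.29. So few correlations cannot show whether the numbers pair the arrays. Leaving out 1 array gave 6 to 31. Of the clock genes that missed the threshold, Arntl, Npas2, Per2, Cry1, Ciart and Tef passed with both kinds of array weights, Cry1 (1.18, adjusted p = 0.0487) and Ciart (-0.63, adjusted p = 0.0246) with the dim level as a covariate, and Ciart (adjusted p = 0.038) with only old control arrays. The difference by age passed for 0 genes except with array weights (2) and gene-by-gene weights (20). The difference by diet passed for 4 genes with the mean of probe sets, 533 with array weights and 380 with gene-by-gene weights, and for 1 to 3 with 1 array left out. Per1 turned to 0.03 with centred arrays, 0.08 and 0.09 with both kinds of weights and 0.01 with the dim level as a covariate, and lay between -0.09 and 0.06 with 1 array left out. The cause of these shifts was not tested. The named genes past the threshold kept their direction in the alternatives run. Changes of dim genes near background may be understated, which was not tested. Such genes leaned upward in this comparison: under the 50th percentile, 14.7% were higher at an unadjusted p under 0.05 and 1.72% lower.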
